A study of Mus musculus with 8 samples.

Results

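The genes described here are 10 that encode proteins of iron uptake, iron storage, iron sensing and haem breakdown: Tfrc, Steap3, Steap4, Lcn2, Fth1, Ireb2, Aco1, Hmox1, Blvrb and Hpx. They were chosen by name, with earlier results of these data known, and the iron transporters of the Slc families were left out of the list. All 10 were measured among 19938 named genes. Each was read by a single probe set with exactly 1 gene symbol. The samples were macrophages (phagocytes) grown from mouse bone marrow, and one group was left untreated. The other groups were treated for 6 h with IFN gamma/LPS (interferon gamma and lipopolysaccharide, a bacterial cell wall component), with IL4/IL13 (interleukins 4 and 13) or with LPS/IL4/IL13. Each of the 4 groups had 2 samples, 1 array each, and the study asked which activation state and which gene signature each treatment gives. Neither LPS nor IFN gamma was given alone, so the groups with LPS differ both in IFN gamma and in IL4/IL13. The strain, age and sex of the mice and the doses were not given in the sources used here.

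Macrophages take up iron bound to transferrin, recover iron from the haem of red cells they engulf, store it in ferritin and release the rest. In infection they hold iron back from microbes. Transferrin enters through transferrin receptor 1 (Tfrc), and metalloreductases of the STEAP family reduce the iron so that it can leave the endosome. Haem oxygenase 1 (Hmox1) opens the haem ring to give iron, carbon monoxide and biliverdin. The iron regulatory proteins encoded by Aco1 and Ireb2 bind ferritin and transferrin receptor messages when iron is scarce, which blocks translation of ferritin and stabilises the receptor message. The arrays measure RNA, so ferritin protein and iron itself were not measured.

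The deposited values are log2 signals, with array medians from 6.12 to 6.20, and they come without detection calls. Replicate arrays correlated at r = 0.9939 to 0.9974 across genes, which are not independent replicates. Of 9 macrophage markers 8 were measured, and all 8 ranked at percentile 96.0 or above in untreated cells. Their mean log2 signal was 11.95 to 11.97 on the untreated arrays, 11.89 to 11.91 with IFN gamma/LPS, 11.46 to 11.47 with IL4/IL13 and 11.88 to 11.93 with LPS/IL4/IL13. That mean is over markers that moved both ways, since 2 rose and 5 fell with each treatment that held LPS (1 rose with LPS/IL4/IL13 under quantile normalization) and 4 fell with IL4/IL13. With IFN gamma/LPS the growth factor receptor gene Csf1r fell from 12.97 and 12.91 to 11.83 and 11.88, and the Fc receptor gene Fcgr1 rose from 10.91 and 10.87 to 12.33 on both arrays. None of the 4 measured erythroid, 6 dendritic cell or 3 B lymphocyte markers lay above the median signal in untreated cells, while 1 of 6 T and NK, 3 of 5 fibroblast and 5 of 11 neutrophil markers did. The dendritic cell markers moved with treatment. Their mean was 5.44 to 5.50 on the untreated arrays, 6.29 to 6.30 with IFN gamma/LPS, 5.72 to 5.76 with IL4/IL13 and 6.06 to 6.16 with LPS/IL4/IL13. Of the 6, 4 rose with IFN gamma/LPS (2 without untreated array 1 or with quantile normalization), 1 with IL4/IL13 and 2 with LPS/IL4/IL13. The chemokine receptor gene Xcr1 rose with IFN gamma/LPS (2.25 ± 0.14, limma adjusted p = 4.33e-08), and the lectin gene Clec9a rose with IFN gamma/LPS (1.69 ± 0.14) and with LPS/IL4/IL13 (1.83 ± 0.14). Over all genes, 23.6% rose and 28.4% fell with IFN gamma/LPS, 20.3% and 25.4% with LPS/IL4/IL13, and 7.83% and 12.3% with IL4/IL13. The part of the cell type markers in the values of the 10 genes was not tested. In such bulk samples fewer cells of a type and less RNA per cell cannot be told apart. The labels leave it unsaid whether a group's arrays stem from different cultures or mice, so the p-values reflect no more than how far these samples differ, and that spread may be technical.

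Differences are log2 fold changes ± SE from limma over all 8 arrays, with n = 2 arrays in each group, and "rose" or "fell" stands for an adjusted p under 0.05 over the 19938 genes. With IFN gamma/LPS, 8 of the 10 iron and haem genes passed against untreated cells, 2 higher and 6 lower, where 51.9% of all genes passed (23.6% higher and 28.4% lower). With LPS/IL4/IL13, 7 passed, 2 higher and 5 lower, against a background of 45.6% (20.3% higher and 25.4% lower). With IL4/IL13, 5 passed, 1 higher and 4 lower, against a background of 20.2% (7.83% higher and 12.3% lower). These 3 comparisons share the untreated arrays. In the last of them the count was 3 without untreated array 1, and that omission also took the count over all genes from 4020 to 2063. The count over all genes was 2380 without untreated array 2 and 2244 without IL4/IL13 array 2.

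Passing the test was common, so the sizes of the changes are given beside the counts. At least 2-fold changes were made by 6 of the 10 genes with IFN gamma/LPS (17.1% of all genes), by 5 with LPS/IL4/IL13 (13.9%) and by 2 with IL4/IL13 (2.45%). The median size of the log2 change was 1.88 over the 10 genes and 0.33 over all genes with IFN gamma/LPS. It was 1.13 and 0.28 with LPS/IL4/IL13, and 0.41 and 0.18 with IL4/IL13. The genes did not move one way. Steap4 and Lcn2 rose with both treatments that held LPS, Tfrc, Steap3, Aco1, Hmox1 and Blvrb fell with both, and Fth1, Ireb2 and Hpx moved by at most 0.38 in any comparison with untreated cells.

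**Figure D1:**
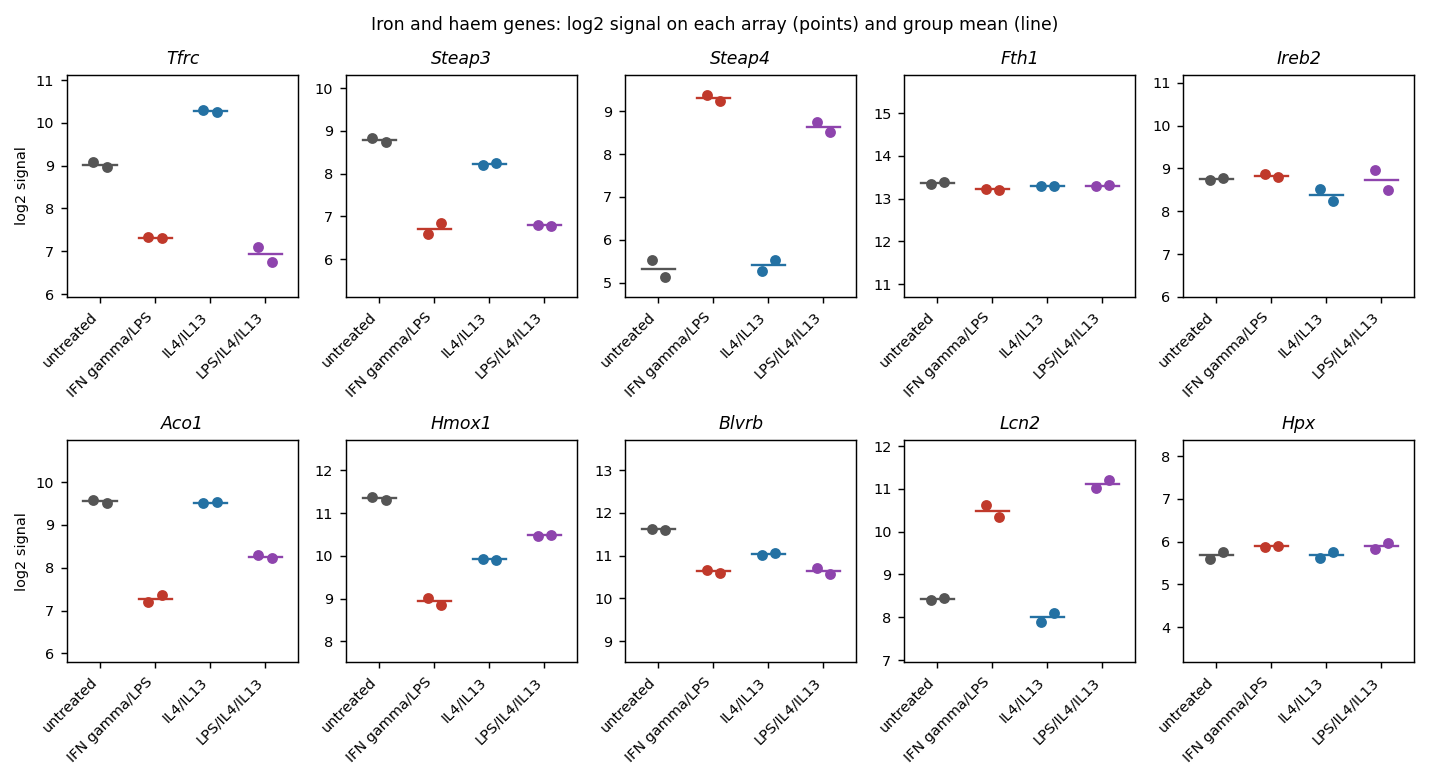
Log2 signal of the 10 iron and haem genes in the 4 groups (horizontal axes), with a point for each array and a line for the group mean. The vertical axes all span the same number of log2 units, each around its own centre. Steap4 and Lcn2 are high in both groups with LPS, Tfrc is highest with IL4/IL13 at 10.25 and 10.31, and Fth1 lies between 13.21 and 13.39 on all 8 arrays.

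Transferrin receptor 1 gave opposite responses to the separate stimuli. Tfrc measured 9.08 and 8.96 on the untreated arrays, 7.33 and 7.31 with IFN gamma/LPS, 10.31 and 10.25 with IL4/IL13, and 7.10 and 6.75 with LPS/IL4/IL13. No arrays of different groups overlapped. Against untreated cells Tfrc rose 2.39-fold with IL4/IL13 (log2 1.26 ± 0.12, limma adjusted p = 9.78e-06). It fell 3.25-fold with IFN gamma/LPS (-1.70 ± 0.12, limma adjusted p = 9.37e-08) and 4.27-fold with LPS/IL4/IL13 (-2.10 ± 0.12, limma adjusted p = 1.75e-08).

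The level of Tfrc with LPS added to IL4/IL13 was therefore far from the level with IL4/IL13 alone. The direct difference was 10.2-fold (-3.36 ± 0.12, limma adjusted p = 3.78e-10), the 18th largest fall of that comparison. Between the groups with LPS the gene was 1.31-fold lower in LPS/IL4/IL13 (-0.40 ± 0.12, limma adjusted p = 0.0307). That last call was lost in 9 of 15 alternatives, with adjusted p from 0.00143 to 0.15 over all of them. Leaving out one array gave 0.0571 (untreated array 1), 0.057 (untreated array 2), 0.12 (IFN gamma/LPS array 1), 0.0854 (IFN gamma/LPS array 2), 0.0563 (IL4/IL13 array 1), 0.0567 (IL4/IL13 array 2) and 0.15 (LPS/IL4/IL13 array 2). In the last of these the log2 difference was -0.22.

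The ferrireductase genes went opposite ways under LPS. Steap3, which reduces transferrin-derived iron in endosomes, measured 8.84 and 8.73 on the untreated arrays, 6.59 and 6.84 with IFN gamma/LPS, 8.20 and 8.25 with IL4/IL13, and 6.81 and 6.78 with LPS/IL4/IL13. All treated arrays lay below the untreated ones, and the arrays of both groups with LPS overlapped. Steap3 fell 4.2-fold with IFN gamma/LPS (-2.07 ± 0.11, limma adjusted p = 8.32e-09) and 3.97-fold with LPS/IL4/IL13 (-1.99 ± 0.11, limma adjusted p = 1.49e-08). The groups with LPS differed by 0.08, with a 95% interval from -0.16 to 0.32, which did not pass. With IL4/IL13 it fell 1.47-fold (-0.56 ± 0.11, limma adjusted p = 0.0029), a call that did not hold without untreated array 1 (-0.51, adjusted p = 0.0511, with a range over the alternatives from 5.6e-05 to 0.0511).

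Steap4, a ferrireductase and cupric reductase found at the cell surface and in endosomes and linked to inflammation, measured 5.52 and 5.13 on the untreated arrays. It measured 9.39 and 9.25 with IFN gamma/LPS, 5.28 and 5.52 with IL4/IL13, and 8.76 and 8.51 with LPS/IL4/IL13. The untreated and IL4/IL13 arrays overlapped, and every array with LPS lay far above them. Steap4 rose 15.9-fold with IFN gamma/LPS (3.99 ± 0.15, limma adjusted p = 3.75e-10) and 9.92-fold with LPS/IL4/IL13 (3.31 ± 0.15, limma adjusted p = 2.41e-09). The group with IFN gamma was 1.61-fold the higher of these (LPS/IL4/IL13 minus IFN gamma/LPS -0.69 ± 0.15, limma adjusted p = 0.00509). IL4/IL13 alone left a difference of 0.08 from untreated cells (95% interval -0.24 to 0.39), which did not pass. Among all genes its signal ranked at percentile 28.2 in untreated cells and at percentile 87.7 with IFN gamma/LPS. Its untreated signals lay near those of the B lymphocyte gene Pax5 (5.05 and 5.42) and were not shown to be above background, so these are folds of signal and not of RNA.

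Lipocalin 2, a secreted protein that binds bacterial siderophores and so keeps iron from bacteria, was the other gene that rose with LPS. Lcn2 measured 8.41 and 8.46 on the untreated arrays, 10.62 and 10.35 with IFN gamma/LPS, 7.89 and 8.10 with IL4/IL13, and 11.02 and 11.20 with LPS/IL4/IL13. The arrays of the 4 groups did not overlap, and the combined treatment gave the highest. Lcn2 rose 4.14-fold with IFN gamma/LPS (2.05 ± 0.11, limma adjusted p = 1.16e-08) and 6.39-fold with LPS/IL4/IL13 (2.68 ± 0.11, limma adjusted p = 1.38e-09). The order of the groups with LPS was the reverse of that for Steap4, with Lcn2 1.54-fold higher in LPS/IL4/IL13 (0.63 ± 0.11, limma adjusted p = 0.00142).

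With IL4/IL13 alone Lcn2 fell 1.36-fold (-0.44 ± 0.11, limma adjusted p = 0.0149). That call was lost without untreated array 1 (adjusted p = 0.0823), untreated array 2 (0.102) or IL4/IL13 array 1 (0.127) and with quantile normalization (0.085), in a range from 0.00157 to 0.127 over the alternatives. Neutrophils also make Lcn2, so their markers are given beside it, although 1 of them, Ltf, is also in the wider iron list. Of 11 neutrophil markers 4 rose and 2 fell with LPS/IL4/IL13, beside 20.3% and 25.4% of all genes. With IFN gamma/LPS 1 rose and 3 fell, beside 23.6% and 28.4% of all genes. The number that fell with LPS/IL4/IL13 was 1 when any 1 of the untreated, IFN gamma/LPS or LPS/IL4/IL13 arrays was left out, and the number that rose with IFN gamma/LPS was 2 without untreated array 2 or IFN gamma/LPS array 2. S100a8, a calcium-binding protein abundant in neutrophils, was at 6.99 and 6.18 with LPS/IL4/IL13 and at 5.44 and 5.42 in untreated cells. Among the called markers with LPS/IL4/IL13 were also the granule protein gene Ngp (-0.90 ± 0.18) and the chemokine receptor gene Cxcr2 (0.76 ± 0.15). The 4 that rose, Cxcr2, Mcemp1, S100a8 and Camp, ranked at percentiles 7.5, 25.5, 30.7 and 38.0 in untreated cells. Those untreated signals were not shown to be above background. Of these 4, Camp did not pass without untreated array 2 (0.36) or LPS/IL4/IL13 array 1 (0.35). Mcemp1 did not pass with quantile normalization (0.282, limma adjusted p = 0.0648), untreated array 1 left out (0.38) or LPS/IL4/IL13 array 2 left out (0.395). Of the 2 that fell, Mpo did not pass with quantile normalization (-0.249, limma adjusted p = 0.0614) or with only the 4 arrays compared (-0.29, 0.0616). The granule protease gene Elane differed by -0.07 and the surface marker gene Ly6g by 0.04 with LPS/IL4/IL13, and neither passed. The mean log2 signal of the 11 markers was 6.10 on each untreated array, 5.95 to 6.04 with IFN gamma/LPS, 6.13 to 6.16 with IL4/IL13 and 6.19 to 6.21 with LPS/IL4/IL13, and its part in the Lcn2 values was not tested.

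The promoters of the pair that rose are shown because motifs of factors known to act downstream of LPS and cytokines can be looked for in them. RefSeq promoter windows of mouse build GRCm38.p6, 250 bases before to 50 after a transcript start, were matched for 9 of the 10 genes (15 windows), and Hmox1 had none. The letters below are the 250 bases before the start, and capitals mark motif matches. Steap4 lies at chr5:7960222-7960471 on the plus strand and Lcn2 at chr2:32387740-32387989 on the minus strand.
Steap4: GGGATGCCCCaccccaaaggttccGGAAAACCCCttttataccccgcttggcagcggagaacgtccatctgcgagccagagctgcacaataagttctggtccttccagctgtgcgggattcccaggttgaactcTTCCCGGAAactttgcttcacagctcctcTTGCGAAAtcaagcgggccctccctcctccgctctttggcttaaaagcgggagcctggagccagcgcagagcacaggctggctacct
Lcn2: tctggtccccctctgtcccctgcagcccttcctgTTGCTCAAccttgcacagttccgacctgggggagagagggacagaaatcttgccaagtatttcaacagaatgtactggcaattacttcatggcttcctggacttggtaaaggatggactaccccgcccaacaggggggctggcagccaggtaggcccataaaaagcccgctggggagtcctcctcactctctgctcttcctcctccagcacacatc

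In the Steap4 window, 2 matches to the kappaB motif of NF-kappaB lie on the minus strand, with first printed bases 250 and 226 before the start. A match to the STAT palindrome TTCNNNGAA lies 116 before it and a match to the C/EBP motif TTGCNNAA 87 before it. The Lcn2 window holds a C/EBP match 216 before the start and no match to the kappaB motif in these letters. Over all 32851 windows of the same length, searched on both strands, 4.51% hold the kappaB motif, 8.3% the STAT palindrome and 10.8% the C/EBP motif. The kappaB and C/EBP motifs were also found in 1 of the 4 windows of Steap3, which fell with LPS. C/EBP matches further lie in windows of Fth1 (129 and 58 before the start) and Hpx (200 before), which changed little. That motif is thus held by 5 of the 9 genes with windows, beside 3298 of all 27025 genes searched. The antioxidant response element TGACNNNGC, held by 12.4% of windows, was found in the Hpx window. The loop of the iron-responsive element was sought together with 5 bases on each side that pair, and on the strand of the gene only. That stem and loop, held by 0.0791% of windows, was found in no window of the 9 genes. The regulatory proteins bind that element in the message, and a window reaches only 50 bases past the start. The search therefore cannot tell whether a message holds the loop. None of these motifs was found in the windows of Tfrc, Aco1, Ireb2 or Blvrb. A match is a description of the letters and not a binding site.

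Ferritin heavy chain, the subunit that oxidises iron for storage, was close to constant. Fth1 measured 13.35 and 13.39 on the untreated arrays, 13.23 and 13.21 with IFN gamma/LPS, 13.29 on both IL4/IL13 arrays, and 13.30 and 13.31 with LPS/IL4/IL13. These are near the top of the table, whose highest value is 13.71, and all treated arrays lay below the untreated ones. The fall with IFN gamma/LPS was 1.11-fold (-0.15 ± 0.04, limma adjusted p = 0.0118). It was lost without untreated array 2 (adjusted p = 0.0889), without IFN gamma/LPS array 2 (0.0558) and with no variance trend (0.172), in a range from 0.00314 to 0.172. The differences with IL4/IL13 (-0.08, 95% interval -0.17 to 0.01) and LPS/IL4/IL13 (-0.07, -0.16 to 0.03) did not pass. Whether a probe set this bright still responds in proportion to RNA was not tested, and ferritin genes have pseudogene copies that could share signal.

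The iron regulatory protein genes differed from each other. Aco1, whose protein is a cytosolic aconitase when it carries an iron-sulphur cluster and an RNA-binding regulator when it does not, measured 9.59 and 9.52 on the untreated arrays and 9.51 and 9.53 with IL4/IL13. It measured 7.19 and 7.36 with IFN gamma/LPS and 8.29 and 8.22 with LPS/IL4/IL13. The untreated and IL4/IL13 arrays overlapped, the combined treatment lay between, and IFN gamma/LPS was lowest. Aco1 fell 4.86-fold with IFN gamma/LPS (-2.28 ± 0.09, limma adjusted p = 9.27e-10) and 2.46-fold with LPS/IL4/IL13 (-1.30 ± 0.09, limma adjusted p = 1.79e-07). The groups with LPS differed 1.97-fold (0.98 ± 0.09, limma adjusted p = 9.91e-06), and IL4/IL13 alone left a difference of -0.04 from untreated cells (95% interval -0.24 to 0.17) that did not pass.

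Ireb2, the regulator that is controlled by degradation of its protein when iron is plentiful, measured 8.73 and 8.77 on the untreated arrays, 8.86 and 8.80 with IFN gamma/LPS, 8.51 and 8.23 with IL4/IL13, and 8.96 and 8.49 with LPS/IL4/IL13. The LPS/IL4/IL13 arrays spanned both the untreated and the IFN gamma/LPS values, and the IL4/IL13 arrays lay below the untreated ones. None of the differences from untreated cells passed: 0.08 with IFN gamma/LPS (95% interval -0.23 to 0.39), -0.38 with IL4/IL13 (-0.69 to -0.07, limma adjusted p = 0.0819) and -0.03 with LPS/IL4/IL13 (-0.33 to 0.28). Only 1 of the 6 comparisons passed, IFN gamma/LPS against IL4/IL13, with Ireb2 1.38-fold higher in the former (0.46 ± 0.14, limma adjusted p = 0.0194). It was lost without IFN gamma/LPS array 1 (0.43, adjusted p = 0.0771) and without IL4/IL13 array 2 (0.32, adjusted p = 0.188), in a range from 0.00102 to 0.188. The difference with IL4/IL13 passed without LPS/IL4/IL13 array 1 (adjusted p = 0.0136) or array 2 (0.0132), in a range from 0.0055 to 0.445.

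Haem oxygenase 1 fell in all treated groups, and by different amounts. Hmox1 measured 11.37 and 11.31 on the untreated arrays, 9.02 and 8.85 with IFN gamma/LPS, 9.92 and 9.91 with IL4/IL13, and 10.47 and 10.48 with LPS/IL4/IL13. No arrays of different groups overlapped, and the group that received LPS together with IL4/IL13 stood nearest to untreated cells. The fall was 5.3-fold with IFN gamma/LPS (-2.41 ± 0.08, limma adjusted p = 1.46e-10), 2.69-fold with IL4/IL13 (-1.43 ± 0.08, limma adjusted p = 1.5e-07) and 1.82-fold with LPS/IL4/IL13 (-0.87 ± 0.08, limma adjusted p = 1.66e-06). With LPS/IL4/IL13 the gene was 2.91-fold higher than with IFN gamma/LPS (1.54 ± 0.08, limma adjusted p = 6.59e-08) and 1.47-fold higher than with IL4/IL13 (0.56 ± 0.08, limma adjusted p = 8.98e-05). All of these calls held under each of the 15 alternatives.

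Biliverdin reductase B, a flavin reductase that can also reduce biliverdin, the product of haem oxygenase, fell in the same 3 groups but by less. Blvrb measured 11.63 and 11.59 on the untreated arrays, 10.67 and 10.60 with IFN gamma/LPS, 11.01 and 11.07 with IL4/IL13, and 10.72 and 10.58 with LPS/IL4/IL13. All treated arrays were lower than the untreated ones, and the arrays of the groups with LPS overlapped. The fall was 1.97-fold with IFN gamma/LPS (-0.98 ± 0.07, limma adjusted p = 1.78e-07), 1.48-fold with IL4/IL13 (-0.57 ± 0.07, limma adjusted p = 0.000121) and 1.95-fold with LPS/IL4/IL13 (-0.96 ± 0.07, limma adjusted p = 2.56e-07). The groups with LPS differed by 0.02 (95% interval -0.14 to 0.17), which did not pass, while Hmox1 in the same comparison was 2.91-fold apart.

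Hemopexin, the plasma protein that binds free haem and is made mainly in the liver, ranked at percentile 37.1 of untreated signals. Hpx measured 5.60 and 5.77 on the untreated arrays, 5.87 and 5.91 with IFN gamma/LPS, 5.61 and 5.77 with IL4/IL13, and 5.84 and 5.96 with LPS/IL4/IL13. The arrays with LPS lay just above the untreated ones, but none of the 6 comparisons passed. The differences from untreated cells were 0.21 with IFN gamma/LPS (95% interval -0.05 to 0.46, limma adjusted p = 0.152), 0.01 with IL4/IL13 and 0.22 with LPS/IL4/IL13 (-0.04 to 0.47, limma adjusted p = 0.148).

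**Figure D2:**
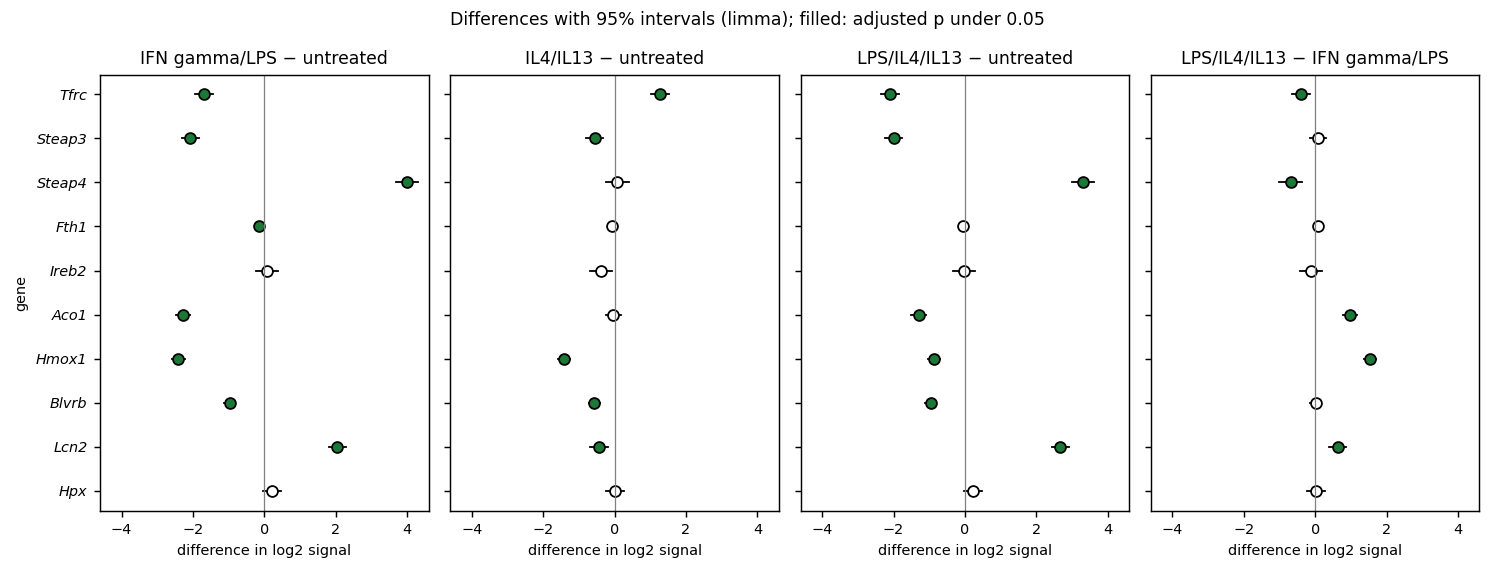
Differences in log2 signal (horizontal axes) of the 10 genes (rows) in 4 comparisons, with 95% intervals from limma and filled points where the adjusted p was under 0.05. With IFN gamma/LPS the points run from -2.41 for Hmox1 to 3.99 for Steap4, and in the panel that sets the groups with LPS against each other Hmox1 (1.54) and Aco1 (0.98) lie farthest to the right and Steap4 (-0.69) farthest to the left.

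In the direct comparison of the groups with LPS, 5 of the 10 genes passed, 3 higher and 2 lower in LPS/IL4/IL13, where 19.7% of all genes passed (12.1% higher and 7.62% lower). Hmox1, Aco1 and Lcn2 were the higher ones and Steap4 and Tfrc the lower ones. A change of at least 2-fold was reached by Hmox1 alone, against 3.32% of all genes. The median log2 difference was 0.05 over the 10 genes and 0.00 over all genes. For Hmox1, Aco1 and Steap4 the mean with LPS/IL4/IL13 was nearer to the untreated mean than the mean with IFN gamma/LPS, and for Lcn2 and Tfrc it was farther. Since IFN gamma and IL4/IL13 both differ between these groups, which of them goes with the difference cannot be told apart.

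When LPS was added to IL4/IL13, 7 of the 10 genes passed against IL4/IL13 alone, 3 higher and 4 lower, where 36.7% of all genes passed (14.1% higher and 22.6% lower). Steap4 (3.24 ± 0.15), Lcn2 (3.12 ± 0.11) and Hmox1 were higher. Tfrc, Steap3 (-1.43 ± 0.11), Aco1 (-1.27 ± 0.09) and Blvrb (-0.39 ± 0.07) were lower. Against IL4/IL13, IFN gamma/LPS gave 8 called genes, 3 higher and 5 lower, beside 41.6% of all genes (15.5% higher and 26.1% lower). Steap4 was 15.1-fold and Lcn2 5.62-fold higher with IFN gamma/LPS, and Tfrc was 7.78-fold and Aco1 4.74-fold lower. At least 2-fold differences were reached by 5 of the 10 genes in each of these comparisons, against 11.2% and 15.2% of all genes.

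A wider list of 27 other iron-handling genes gives the surroundings of these genes, and all 27 were measured. With IFN gamma/LPS 9 rose and 8 fell, beside 23.6% and 28.4% of all genes, with a median log2 change of 0.16 where all genes had 0.10. Cp, the ferroxidase ceruloplasmin, rose 5.94-fold (2.57 ± 0.10, limma adjusted p = 4.31e-10), and Hamp, which encodes the iron hormone hepcidin, rose 3.05-fold (1.61 ± 0.22, limma adjusted p = 4.34e-05). The untreated signals of Hamp (4.73 and 5.52) were not shown to be above background, so its fold is of signal and not of RNA. Flvcr1, described as a haem exporter, fell 5.03-fold (-2.33 ± 0.10, limma adjusted p = 1.22e-09), and Ncoa4, the receptor that carries ferritin to the lysosome, fell 4.96-fold (-2.31 ± 0.11, limma adjusted p = 4.68e-09).

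With LPS/IL4/IL13, 10 of the 27 rose and 7 fell, beside 20.3% and 25.4% of all genes, with a median of 0.17 where all genes had 0.09. Cp rose 10.2-fold (3.35 ± 0.10, limma adjusted p = 5.99e-11), from 8.07 and 7.95 to 11.43 and 11.29. Hp, which encodes the haemoglobin-binding protein haptoglobin, rose 2.72-fold (1.45 ± 0.14, limma adjusted p = 3.05e-06). The untreated signals of Hp (5.46 and 5.45) were not shown to be above background, so its fold too is of signal. Ncoa4 (-1.79 ± 0.11) and the endocytic receptor gene Lrp1, which takes up haem-hemopexin among other ligands (-1.69 ± 0.08), fell the most. Between the groups with LPS 9 of the 27 passed, and those 9 were higher in LPS/IL4/IL13, beside 12.1% of all genes. Flvcr1 led with 4.03-fold (2.01 ± 0.10, limma adjusted p = 4.29e-08), followed by Hp (1.01 ± 0.14), Cp (0.78 ± 0.10) and Hmox2 (0.70 ± 0.08), the constitutive haem oxygenase.

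With IL4/IL13, 3 of the 27 rose and 6 fell, beside 7.83% and 12.3% of all genes, and without untreated array 1 the number that fell was 3. Hfe, whose protein binds transferrin receptor 1 and is mutated in haemochromatosis, rose 1.59-fold (0.67 ± 0.09, limma adjusted p = 0.000225), and it fell 4.26-fold with IFN gamma/LPS and 2.85-fold with LPS/IL4/IL13. Those directions are the ones Tfrc took in each of the 3 groups. Bach1, the haem-sensing repressor of Hmox1, rose 1.28-fold with IL4/IL13 (0.36 ± 0.07), a call that did not hold without untreated array 2 (adjusted p = 0.0563), and its log2 change was 0.56 with IFN gamma/LPS and 1.20 with LPS/IL4/IL13. Lrp1 (-0.92 ± 0.08) and Blvra, the main biliverdin reductase (-0.72 ± 0.10), fell the most with IL4/IL13. The ferritin light chain gene Ftl1, picked after its values were seen because it is the partner of Fth1, measured 13.32 and 13.37 on the untreated arrays. It measured 12.61 and 12.64 with IFN gamma/LPS, 13.17 and 13.20 with IL4/IL13, and 12.74 and 12.78 with LPS/IL4/IL13. Ftl1 fell 1.65-fold with IFN gamma/LPS (-0.72 ± 0.05, limma adjusted p = 6.91e-08), and near-identical ferritin copies could share its signal too. Its call with IL4/IL13 (-0.16) was lost with quantile normalization (limma adjusted p = 0.288) and with no variance trend (0.235). It was also lost when any 1 of the untreated or IL4/IL13 arrays was left out, with log2 changes from -0.185 to -0.135.

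Of 9 genes of haem synthesis 8 were measured, and 5 fell and 1 rose with each treatment that held LPS. Of all genes 28.4% fell and 23.6% rose with IFN gamma/LPS, and 25.4% fell and 20.3% rose with LPS/IL4/IL13. The median log2 change was -0.92 with IFN gamma/LPS and -0.51 with LPS/IL4/IL13. It was 0.00 with IL4/IL13, with which 1 gene passed, beside 20.2% of all genes. That gene, Urod, fell by a log2 change of -0.44 ± 0.12 (limma adjusted p = 0.0239), and the call was lost without untreated array 1 (adjusted p = 0.134), untreated array 2 (0.125), IL4/IL13 array 1 (0.136) or IL4/IL13 array 2 (0.0793). The ferrochelatase gene Fech, which inserts iron into the ring, fell 3.26-fold (-1.71 ± 0.12, limma adjusted p = 1.32e-07) and 2.56-fold (-1.36 ± 0.12, limma adjusted p = 1.34e-06) with IFN gamma/LPS and LPS/IL4/IL13. Urod, a decarboxylase of the middle of the pathway, fell 2.64-fold and 3.06-fold. The 5 that fell were not all the same genes, as Cpox was among them only with IFN gamma/LPS and Uros only with LPS/IL4/IL13. The Uros call was lost with quantile normalization (-0.246, limma adjusted p = 0.105). It was also lost without untreated array 1 (-0.315), untreated array 2 (-0.305) or LPS/IL4/IL13 array 1 (-0.225). The gene that rose was Alas1, the first and rate-limiting enzyme, by 1.24-fold with IFN gamma/LPS (0.31 ± 0.07, limma adjusted p = 0.0025) and 1.95-fold with LPS/IL4/IL13 (0.96 ± 0.07, limma adjusted p = 1.78e-07).

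The Slc family carriers of iron and haem, which are not among the 10 genes, held the largest fall of these lists, that of the iron exporter gene Slc40a1 (ferroportin), 23.1-fold with IFN gamma/LPS, 9.16-fold with IL4/IL13 and 32.3-fold with LPS/IL4/IL13. Its signals with IFN gamma/LPS (5.60 and 5.54) and with LPS/IL4/IL13 (5.19 and 4.98) were not shown to be above background, so those are folds of signal and give no order of the treatments. Slc39a14, an importer of iron not bound to transferrin, rose 2.35-fold with IFN gamma/LPS and 9.68-fold with LPS/IL4/IL13.

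**Figure D3:**
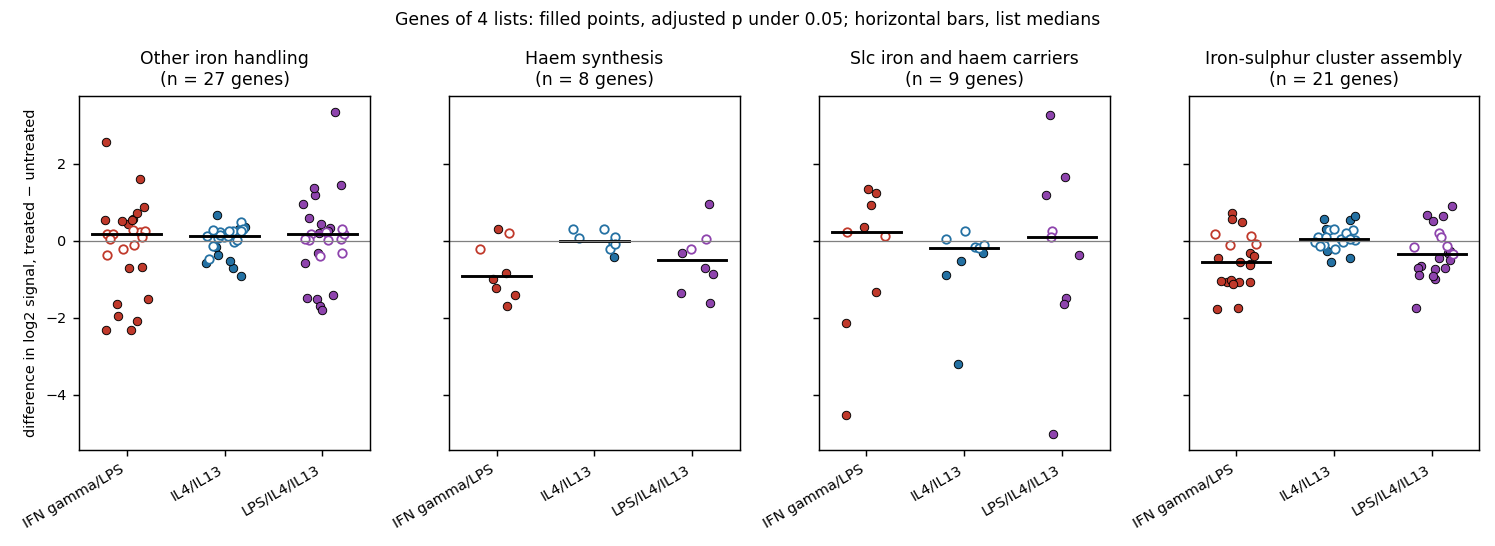
Difference in log2 signal from untreated cells (vertical axis) for each measured gene of 4 lists, by treatment (horizontal axes), with filled points where the limma adjusted p was under 0.05 and bars at list medians. The haem synthesis medians are -0.92, 0.00 and -0.51 from left to right, while the medians of the other iron-handling genes are 0.16, 0.11 and 0.17.

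Genes with patterns most like those of the 10 were taken by the root mean square difference of log2 signals over the 8 arrays, after centring each gene on its own mean. For Tfrc these were Tanc2 (0.205), Clec10a (0.226) and Tbc1d4 (0.241). For Steap4 they were Stx11 (0.186), Nt5c3 (0.191) and Fas (0.202), and for Lcn2 they were Ets2 (0.143), Slc7a11 (0.250) and Osm (0.252). Steap3 lay within 0.052 of Sh2d3c, Aco1 within 0.048 of Septin9 and Blvrb within 0.035 of Synj2. Hmox1 had the least close neighbours, with Elk3 at 0.232, Zfp874b at 0.303 and Sntb2 at 0.307. The nearest genes to Fth1, Ireb2 and Hpx were Rhog (0.035), Stx16 (0.077) and Ccdc170 (0.031). None of the nearest 3 to any of the 10 was another of the 10.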

How the data were processed

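Total RNA of 8 samples was labelled with biotin, with RNA integrity above 9, and hybridised to Affymetrix mouse gene arrays, per the labels. The deposited table holds 1 log2 signal per probe set and array, from 1.46 to 13.71. The labels name a MAS5 signal, but the range of the values is that of a log2 scale, and the authors' background correction and normalization were not given in the sources used here.

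Names came from the platform annotation: 21789 of 35556 probe sets carried 1 symbol, 1621 several and 12146 none, and probe sets without exactly 1 symbol were left out. The probe set with the highest mean over the 8 arrays stood for each of 19938 genes, of which 999 had more than 1 probe set. Limma 3.58.1 in R 4.3.3 fitted 1 model over the 4 groups, with a variance trend and 4 residual degrees of freedom, and 6 comparisons were adjusted by Benjamini-Hochberg. The fit was tested on simulated data. Arrays give no depth, so their number limits the precision.

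The 10 genes, the wider lists, the markers and the motifs were chosen with earlier results of these data known. All 10 are named. Of each wider list the called genes with the largest changes are named, at most 4 per list and comparison, besides the exceptions stated, and 3 nearest genes were sought per gene, leaving out predicted genes and small RNAs. The alternatives changed the scaling (quantile normalization or median centring), left out genes below the 40th percentile of signal, dropped the variance trend, fitted only the 4 arrays compared, added the replicate number as a block, averaged the probe sets of a gene, or left out each array in turn. A planned comparison of protein sequences was not run.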

Additional observations from a re-analysis of the deposited data

How the results depend on the processing

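Of 60 results (10 genes in 6 comparisons), 40 were called, 35 of those passed under every one of the 15 alternatives, 5 lost the threshold under some and 0 reversed. Of the 20 not called, 3 passed under some. Ireb2 in IL4/IL13 against untreated passed under 4 of the 15. Fth1 in IFN gamma/LPS against IL4/IL13 passed under 1 (-0.12 with quantile normalization). Ireb2 in LPS/IL4/IL13 against IL4/IL13 passed under 5. These were quantile normalization (0.419), median centring (0.425), the filter on dim genes (0.355), the replicate block and the omission of LPS/IL4/IL13 array 2 (0.59). Others of the 20 results changed sign around 0. Quantile normalization gave 0.041 for Aco1, -0.118 for Hpx and -0.054 for Steap4 with IL4/IL13, 0.112 for Ireb2 with LPS/IL4/IL13, and median centring gave -0.045 for Hpx with IL4/IL13. With an array left out, the lowest and highest values between the groups with LPS were -0.055 and 0.085 (Blvrb), -0.05 and 0.07 (Hpx), -0.34 and 0.13 (Ireb2) and -0.045 and 0.205 (Steap3). They were -0.08 and 0.09 (Hpx) and -0.12 and 0.27 (Steap4) with IL4/IL13 against untreated, and -0.26 and 0.21 (Ireb2) with LPS/IL4/IL13 against untreated. Hpx has no value under the filter on dim genes.

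The number of all genes called in IL4/IL13 against untreated ran from 2063 to 4876 with an array left out, and that of the 10 genes from 3 to 6. The count between the groups with LPS was 3926 and fell to 2603 with only the 4 arrays compared. Median centring took the share of higher genes among those called with IL4/IL13 from 38.8% to 28.6%. With the replicate number as a block, the 10 genes gave 8, 5, 7, 5, 8 and 8 calls in place of 8, 5, 7, 5, 7 and 8, with the comparisons against untreated cells first (IFN gamma/LPS, then IL4/IL13, then LPS/IL4/IL13), then LPS/IL4/IL13 against IFN gamma/LPS and against IL4/IL13, and last IFN gamma/LPS against IL4/IL13. The block made 1 change, Ireb2 in LPS/IL4/IL13 against IL4/IL13 (0.36, limma adjusted p = 0.0458). Deviations of arrays with the same number correlated between groups at -0.3581 to 0.2170 across genes. With so few arrays in each group, these correlations cannot tell whether the numbers pair the arrays. For the wider lists, examined after seeing the data, quantile normalization turned Bola3 to 0.077 with IFN gamma/LPS and 0.001 with LPS/IL4/IL13. The cause of these changes was not tested. The arrays came without detection calls, so low signals such as those of Hpx have no stated background.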

Other observations

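Genes that build iron-sulphur clusters, the cofactor that switches the Aco1 protein between enzyme and regulator, are a further group. Of 25 listed genes 21 were measured. With IFN gamma/LPS 3 rose and 14 fell, beside 23.6% and 28.4% of all genes, with a median log2 change of -0.56 where all genes had 0.10, and with LPS/IL4/IL13 4 rose and 12 fell, beside 20.3% and 25.4%, with a median of -0.35 where all genes had 0.09. Lyrm4, a partner of the cysteine desulphurase, fell 3.43-fold (-1.78 ± 0.12, limma adjusted p = 1.03e-07) with IFN gamma/LPS, and Hscb, a co-chaperone of cluster transfer, fell 3.34-fold (-1.74 ± 0.12, limma adjusted p = 7.73e-08). Hscb fell 3.38-fold with LPS/IL4/IL13. Ciao2b and Isca2, of the cytosolic and mitochondrial delivery steps, were the called genes with the largest rises with IFN gamma/LPS (0.72 ± 0.10 and 0.58 ± 0.10).

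With IL4/IL13, 4 of the 21 rose and 3 fell, beside 7.83% and 12.3% of all genes. Fewer fell without untreated array 1, IL4/IL13 array 1 or IL4/IL13 array 2. The number that rose was 8 with quantile normalization and 7 with only the 4 arrays compared. Nubp1, of the cytosolic scaffold, had the largest rise (0.65). Iscu, the scaffold on which the cluster is built, was 1.49-fold higher with IL4/IL13 (0.58 ± 0.08, limma adjusted p = 0.000308) and 1.31-fold lower with IFN gamma/LPS (-0.39 ± 0.08, limma adjusted p = 0.00148). Between the groups with LPS 4 of the 21 were higher in LPS/IL4/IL13 and 1 was lower, beside 12.1% and 7.62% of all genes. Lyrm4 (0.80 ± 0.12) and the mitochondrial chaperone gene Hspa9 (0.77 ± 0.14) led the higher ones. Their number was 8 without dim genes, and it changed when some arrays were left out. The 1 gene that was lower, Nfu1, did not pass without IFN gamma/LPS array 1 (limma adjusted p = 0.0737) or array 2 (0.0712), with no variance trend, with only the 4 arrays compared or with the mean over probe sets.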
